A study of Mus musculus with 24 samples.

Results

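The 10 TNF and NF-kB response genes described here were followed across mouse prostate tumors treated with gene therapy for IL-27, a cytokine that regulates immune cells, with cabozantinib (cabo), an oral inhibitor of MET, VEGF receptor and other kinases, or with both. The members were chosen by name, as the rows of the count table whose Ensembl identifier has one of 10 symbols in the GENCODE M21 annotation (Tnf, Tnfaip3, Nfkbia, Nfkb2, Relb, Birc3, Traf1, Icam1, Vcam1 and Ptgs2). They are 10 of the 55401 genes listed. This rule uses names and no measured value, although the genes were proposed with earlier results of these data known. All 10 passed the filter on low counts in every comparison.

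NF-kB is a family of transcription factors that is held in the cytoplasm by inhibitor proteins until a receptor, such as one for the cytokine TNF, activates the kinases that release it. In the canonical arm, IkB-alpha (Nfkbia) is degraded and RelA enters the nucleus, and in the non-canonical arm the kinase NIK has p100 (Nfkb2) processed to p52, the partner of RelB. Many targets feed back on the pathway: Nfkbia and the ubiquitin-editing enzyme A20 (Tnfaip3) switch it off, Traf1 and Birc3 (cIAP2) encode proteins that sit at TNF-family receptors and favour survival, and Nfkb2 and Relb are induced as subunits. Icam1 and Vcam1 encode adhesion molecules that bind leukocytes, and Ptgs2 encodes COX-2, the inducible enzyme of prostaglandin synthesis.

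RNA was measured in 24 tumors of male C57/BL6 mice aged 8 to 10 weeks, in 10 groups. All tumors, controls included, grew from TC2Ras cells or from their derivative TC2Ras-Luc. TC2Ras cells were made from the TRAMP-C2 mouse prostate adenocarcinoma line by lentiviral transfer of activated H-Ras and of mouse androgen receptor. In the subcutaneous (SC) model, 300000 TC2Ras cells were implanted per flank and tumors were harvested after 1 week from mice given empty vector (SC control, n = 2) or IL-27 vector (SC IL-27, n = 2). In the intratibial model, 100000 TC2Ras-Luc cells were implanted per tibia. Tumors were harvested at day 14 (D14, n = 3 per group) or at the end of study (EOS, the ethical endpoint of each mouse, n = 2 per group). The intratibial control mice received empty vector and PVP, the vehicle of cabo, by gavage. IL-27 mice received IL-27 vector and PVP, cabo mice received empty vector and cabo, and IL-27+cabo mice received IL-27 vector and cabo. Plasmids were delivered to muscle by sonoporation, and gavage was daily for 2 weeks, so that EOS tumors were collected after dosing had stopped. The IL-27 vector was thus given to muscle of the host and not to the tumor cells. Intratibial tumors are named by mouse number.

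Counts on genes totalled 63729005 to 83782258 per tumor, and replicates of a group correlated at r = 0.91 to 0.98 over filtered genes. The IL-27+cabo tumor of mouse 20 (D14) had the fewest counts and the lowest such r. Epithelial tumor markers summed to between 60.2 and 336 CPM (counts relative to the scaled library total) in every group, whereas the osteoblast marker Bglap was at 0 in every tumor of all D14 groups and of 3 of the 4 EOS groups. Nothing in the sources states whether a pair of SC tumors came from separate mice, so the p-values of that comparison measure the spread between tumors.

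Promoters are given first, because NF-kB acts through a short DNA motif. RefSeq promoters on GRCm38.p6, from 250 bases before to 50 bases after the start site, were held for 8 of the 10 members. The degenerate NF-kB consensus of 10 letters was searched on both strands. It was found in 1480 of 32851 promoters (4.51%) and in 5 of the 11 promoters of these members, which belong to Nfkb2 (3 promoters), Nfkbia and Tnfaip3. The Nfkb2 windows chr19:46305445-46305744 and chr19:46305680-46305979 overlap, and the same match is counted in both. The 5 promoters are therefore not independent, and a share by gene was not computed. Below, matches are in capitals and other bases in lower case, 5′ to 3′ on the strand of the gene. The Nfkb2 promoter with the most matches (chr19:46304487-46304786, plus strand) had overlapping matches 39 to 29 bases before the start site and a further match 11 to 2 bases before it. The Nfkbia promoter (chr12:55492598-55492897, minus strand) had a match 29 to 20 bases before the start site. The upstream Tnfaip3 promoter (chr10:19015361-19015660, minus strand) had matches 125 to 116 and 12 to 3 bases before it. The Ptgs2 promoter (chr1:150099781-150100080, plus strand) is shown beside them as a window without these letters. They are also not in the windows of Tnf and Icam1, of Traf1, which fell in SC tumors as Nfkb2 did, or of Birc3, which rose with cabo at D14.
Nfkb2: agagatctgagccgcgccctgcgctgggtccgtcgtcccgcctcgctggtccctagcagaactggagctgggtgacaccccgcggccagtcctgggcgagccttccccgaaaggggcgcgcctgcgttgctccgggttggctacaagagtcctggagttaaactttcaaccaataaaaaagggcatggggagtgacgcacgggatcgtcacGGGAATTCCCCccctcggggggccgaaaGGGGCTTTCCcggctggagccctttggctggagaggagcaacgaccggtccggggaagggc
Nfkbia: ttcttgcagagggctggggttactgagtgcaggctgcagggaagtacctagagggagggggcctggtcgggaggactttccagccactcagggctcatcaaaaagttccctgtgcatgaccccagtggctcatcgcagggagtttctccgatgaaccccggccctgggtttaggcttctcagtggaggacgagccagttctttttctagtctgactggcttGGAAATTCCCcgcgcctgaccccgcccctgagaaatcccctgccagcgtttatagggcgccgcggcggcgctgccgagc
Tnfaip3: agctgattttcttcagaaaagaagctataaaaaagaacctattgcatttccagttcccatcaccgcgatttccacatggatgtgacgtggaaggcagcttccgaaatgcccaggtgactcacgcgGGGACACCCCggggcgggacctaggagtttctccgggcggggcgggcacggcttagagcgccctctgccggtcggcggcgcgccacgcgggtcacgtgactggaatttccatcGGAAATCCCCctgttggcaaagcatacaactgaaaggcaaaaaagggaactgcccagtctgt
Ptgs2: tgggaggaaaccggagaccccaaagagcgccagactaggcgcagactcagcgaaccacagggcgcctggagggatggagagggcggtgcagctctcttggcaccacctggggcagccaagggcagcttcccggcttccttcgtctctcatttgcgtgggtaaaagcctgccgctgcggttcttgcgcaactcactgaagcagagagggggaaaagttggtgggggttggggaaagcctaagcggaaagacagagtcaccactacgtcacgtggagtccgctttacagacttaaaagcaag

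All gene positions are GENCODE M21 on GRCm38. Tnf (ENSMUSG00000024401) lies on chromosome 17 at 35199381 to 35202007, minus strand, and Tnfaip3 (ENSMUSG00000019850) on chromosome 10 at 19000910 to 19015657, minus strand. Nfkbia (ENSMUSG00000021025) lies on chromosome 12 at 55489410 to 55492647, minus strand, and Nfkb2 (ENSMUSG00000025225) on chromosome 19 at 46304320 to 46312385, plus strand. Relb (ENSMUSG00000002983) lies on chromosome 7 at 19606217 to 19629438, minus strand, and Birc3 (ENSMUSG00000032000) on chromosome 9 at 7848699 to 7873186, minus strand. Traf1 (ENSMUSG00000026875) lies on chromosome 2 at 34941750 to 34961772, minus strand, and Icam1 (ENSMUSG00000037405) on chromosome 9 at 21015985 to 21028817, plus strand. Vcam1 (ENSMUSG00000027962) lies on chromosome 3 at 116109949 to 116129688, minus strand, and Ptgs2 (ENSMUSG00000032487) on chromosome 1 at 150100031 to 150108227, plus strand. The sources used here do not say which part of each gene was counted. Nfkb2 is overlapped on the opposite strand by Psd and AC114539.1, Icam1 by Gm47079 and Vcam1 by Gm43109. The libraries were stranded, but whether counting used the strand is not given in the sources used here, so reads of these overlapping genes may be mixed.

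Over the 20 intratibial tumors, Nfkbia and Nfkb2 were the most abundant members per length and Tnf the least. In CPM per kilobase of exon, the median level was 30.1 for Nfkbia (range 19.9 to 63.1), 25.7 for Nfkb2 (21.2 to 35.0) and 0.602 for Tnf (0.0756 to 1.14). The ranges of Nfkbia and Nfkb2 overlapped. Birc3 followed (median 9.10, highest 12.7) and stayed below Nfkb2, whereas Ptgs2 (median 8.85) reached 25.4 and so overlapped the range of Nfkb2. Relb (5.90), Vcam1 (4.62), Tnfaip3 (3.80), Traf1 (2.43) and Icam1 (2.14) came next by median CPM per kilobase, with ranges that overlapped between neighbours. Tnf rested on only 8 to 134 counts per intratibial tumor, whereas every other member had at least 249. Nfkb2 varied least among the tumors, by 1.65-fold from lowest to highest CPM, and Tnf most, by 15.1-fold, followed by Vcam1 (8.15-fold) and Icam1 (7.38-fold). In bulk tumors, fewer cells of a type and less RNA per cell cannot be told apart.

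**Figure D1:**
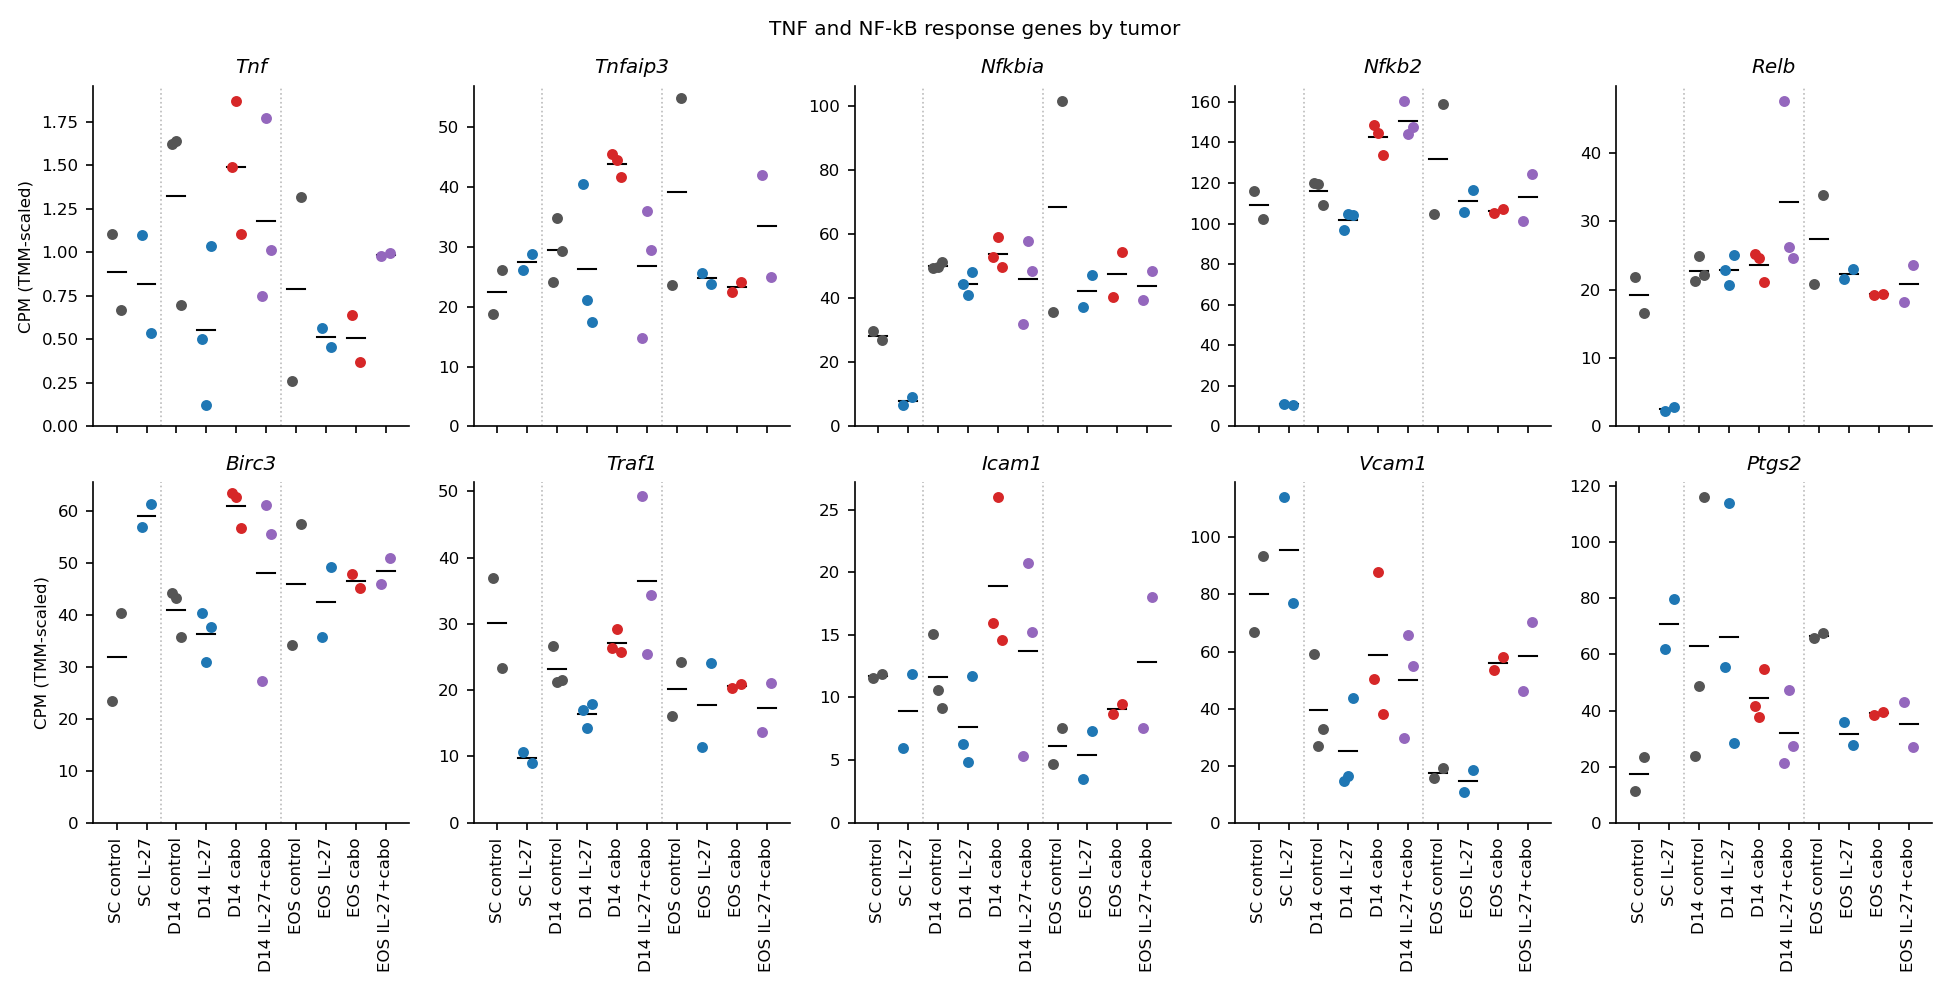
Level of each of the 10 genes in each of the 24 tumors, in CPM scaled by TMM on a linear axis that starts at 0; each point is 1 tumor, the bar is the group mean, and SC and intratibial tumors were scaled apart. Nfkb2, Relb and Nfkbia are low in both SC IL-27 tumors, the Vcam1 points of the EOS cabo and IL-27+cabo groups lie above those of EOS control and IL-27, and 1 EOS control tumor (mouse 9) stands high for Nfkbia, Tnfaip3 and Nfkb2.

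SC tumors were compared to ask how IL-27 delivered from muscle changed the genes in a tumor away from bone. Both subunit genes, the inhibitor Nfkbia and the adaptor Traf1 fell with IL-27, and Ptgs2 rose. Called genes are those with an adjusted p under 0.05 in edgeR's quasi-likelihood test. Of the 10 members, 4 were called lower and 1 higher, beside 20% of all 19360 genes tested (682 higher and 3198 lower). The median log2 fold change was -0.25 over the members and 0.04 over all genes tested.

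Nfkb2 was at 116 and 102 CPM in the control tumors and at 11.2 and 10.7 CPM in the IL-27 tumors. The groups were far apart, and the log2 fold change was -3.32 (SE 0.33, edgeR adjusted p = 0.00156), or 9.96-fold lower. Relb, the partner of the processed Nfkb2 product, was at 21.8 and 16.7 CPM in control and 2.20 and 2.77 CPM in IL-27 tumors, a log2 fold change of -2.95 (SE 0.42, edgeR adjusted p = 0.00411). Nfkbia, whose product retains RelA in the cytoplasm, was at 29.7 and 26.9 CPM in control and 6.74 and 9.07 CPM in IL-27 tumors. Its log2 fold change was -1.84 (SE 0.37, edgeR adjusted p = 0.0150). Traf1 was at 36.9 and 23.3 CPM in control and 10.7 and 8.96 CPM in IL-27 tumors, a log2 fold change of -1.62 (SE 0.40, edgeR adjusted p = 0.0301). The control tumors spread more for Traf1 than for Nfkb2, but no IL-27 tumor reached them. Without SC control tumor 1, Nfkbia (edgeR adjusted p = 0.0635), Traf1 (0.104) and Ptgs2 (0.0544) were no longer called. Without IL-27 tumor 1, Nfkbia (0.109) and Traf1 (0.0941) lost their calls, as did Traf1 without IL-27 tumor 2 (0.165). Nfkb2 and Relb were called in all 4 such fits.

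Ptgs2 went the other way, from 11.3 and 23.5 CPM in control to 61.9 and 79.8 CPM in IL-27 tumors. The log2 fold change was 2.03 (SE 0.44, edgeR adjusted p = 0.0190), or 4.08-fold higher. Birc3 was also above control in both IL-27 tumors (57.0 and 61.3 CPM against 23.4 and 40.5 CPM) but was not called, with a log2 fold change of 0.89 (SE 0.37, edgeR adjusted p = 0.135). Without SC control tumor 2, Birc3 was called (log2 fold change 1.30, edgeR adjusted p = 0.035). The remaining members had log2 fold changes between -0.40 (Icam1) and 0.29 (Tnfaip3), and none passed. Tnf itself was at 1.10 and 0.667 CPM in control and 1.10 and 0.539 CPM in IL-27 tumors, so that the groups overlapped.

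Fold changes of the members in SC tumors lined up in part with base composition. The exons of Nfkb2 and Relb had the highest GC content of the members (59.4% and 56.8%), those of Nfkbia and Traf1 had 52.9% and 53.9%, and those of Ptgs2 and Vcam1 the lowest (40.0% and 40.1%). Icam1, at 55.4% GC, and Tnf, at 52.1%, were not called, with log2 fold changes of -0.40 and -0.11. Icam1 was at 11.5 and 11.9 CPM in control and 5.95 and 11.9 CPM in IL-27 tumors. With offsets that removed the GC and length trend of every library, 1 of the 10 members was called in place of 5, and the median of all genes moved to -0.32. Nfkbia remained, with a log2 fold change of -1.34 (edgeR adjusted p = 0.0410). Nfkb2 went to -0.86 (edgeR adjusted p = 0.061) and Relb to -1.09 (edgeR adjusted p = 0.087). Traf1 went to -0.72 (edgeR adjusted p = 0.19), and Ptgs2 to 0.79 (edgeR adjusted p = 0.145). The directions of the 5 called members were kept, and only Nfkbia kept most of its size.

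**Figure D2:**
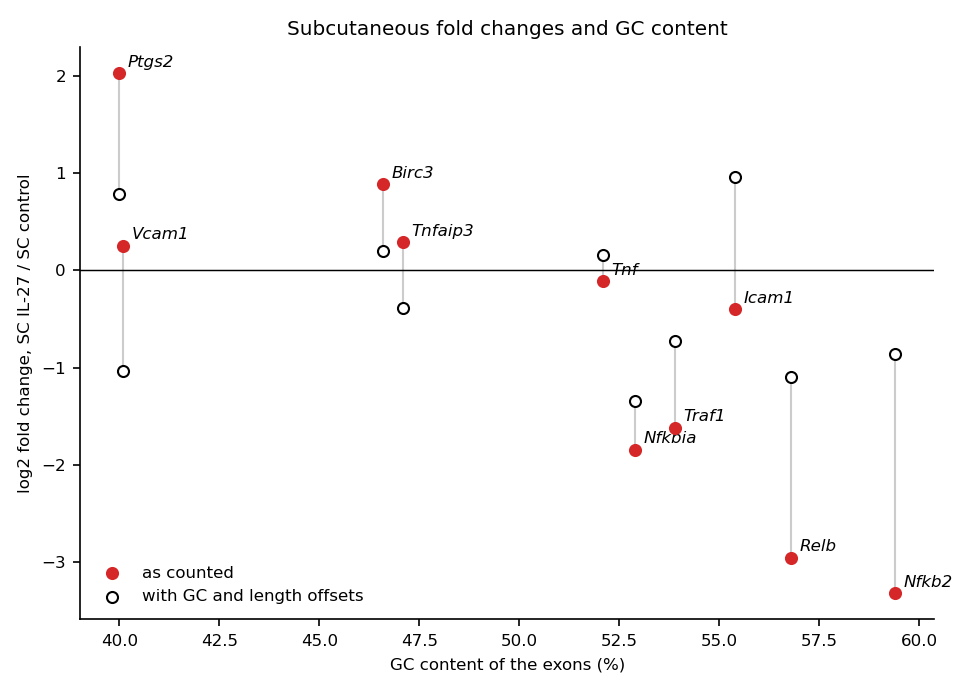
Log2 fold change of each gene between SC IL-27 and SC control tumors (2 tumors each) against the GC content of its exons in percent; red points are from the counts as deposited and open points from the fit with GC and length offsets. The fall of Nfkb2 shrinks from -3.32 to -0.86 and that of Nfkbia from -1.84 to -1.34.

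Of 62 further genes of the pathway, 60 were tested in SC tumors, and 4 were called higher and 13 lower (11 and 17 by DESeq2), and the median of their log2 fold changes was 0.29, beside 0.04 for all genes. By role, 2 of 11 ligands and receptors, 4 of 15 adaptors and kinases, 1 of 3 NF-kB subunits and 3 of 8 inhibitors and feedback genes were called lower, and of 15 inflammatory targets 4 were called higher and 3 lower. Of 8 survival targets 0 were called by edgeR, 1 had an unadjusted p under 0.05 and 1 was called higher by DESeq2, and their median was 0.75 on the log2 scale. These counts stand beside 3198 of all 19360 genes called lower and 682 called higher. Rela, the main canonical subunit, fell from 145 and 99.7 CPM to 7.73 and 6.36 CPM, a log2 fold change of -4.12 (edgeR adjusted p = 0.00146). Map3k14 (NIK, the kinase of the non-canonical arm) changed by -5.06 on the log2 scale. Tnip1, a partner of A20, changed by -3.80, and Ltbr, the lymphotoxin beta receptor, by -4.16. With GC and length offsets these 4 remained called, at -1.67 for Rela, -2.76 for Map3k14, -1.67 for Tnip1 and -1.54 for Ltbr. Il6 rose by 2.85 on the log2 scale, Il1b by 2.22, and the neutrophil chemokine genes Cxcl5 and Cxcl2 by 4.46 and 2.90. With the offsets Il1b remained called (1.57, edgeR adjusted p = 0.0415). Il6 (1.45), Cxcl5 (3.25) and Cxcl2 (2.00) did not pass (edgeR adjusted p = 0.117, 0.0507 and 0.128). Leaving out either control tumor removed the call of Cxcl5 (highest edgeR adjusted p = 0.127), and leaving out any tumor but IL-27 tumor 1 that of Cxcl2 (highest 0.236), whereas the other 6 named genes stayed called in each of the 4 such fits.

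Markers of other cell types moved in the same tumors. Neutrophil markers summed to 49.5 to 55.5 CPM in IL-27 and 11.4 to 14.1 CPM in control tumors, with 5 of the 9 tested markers called higher and with Camp, Ltf and Mpo at 0 in both control tumors. Skeletal muscle markers summed to 340 to 1020 CPM in IL-27 and 3.26 to 12.4 CPM in control tumors (9 of 10 called higher). Myeloid markers summed to 1350 to 1830 CPM in IL-27 and 928 to 1070 CPM in control tumors (1 called higher and 3 lower by edgeR, 4 higher and 3 lower by DESeq2). Lymphocyte markers summed to 32.2 to 33.9 and 9.39 to 11.2 CPM (4 of 10 called higher). Endothelial markers summed to 383 to 824 and 389 to 424 CPM (2 of 10 called lower by edgeR, 4 higher and 4 lower by DESeq2, and 8 with an unadjusted p under 0.05). Of the fibroblast and bone markers 1 was called higher and 2 lower of 7 tested (3 higher and 2 lower by DESeq2). Of the epithelial tumor markers 2 of 6 were called lower, with sums of 60.2 to 93.6 CPM in IL-27 and 77.8 to 101 CPM in control tumors. The part of these cells in the changes of the members was not tested.

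At D14, intratibial cabo and control tumors were compared to ask what the kinase inhibitor did during dosing. Birc3 rose, and it was the only member called, beside 1.89% of 18627 genes tested. Birc3 was at 63.5, 62.7 and 56.8 CPM in the cabo tumors and 44.2, 43.2 and 35.8 CPM in the control tumors. The groups did not overlap, and the log2 fold change was 0.55 (SE 0.11, edgeR adjusted p = 0.0466), or 1.47-fold. That call was lost in each fit that left out 1 of the 6 tumors (edgeR adjusted p = 0.0555 to 0.20), where the log2 fold change stayed between 0.46 and 0.60.

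Tnfaip3 and Nfkb2 were likewise higher in every cabo tumor but did not pass. Tnfaip3 was at 45.5, 44.4 and 41.7 CPM with cabo and 24.1, 34.8 and 29.3 CPM in control (log2 fold change 0.55, SE 0.14, edgeR adjusted p = 0.103). Nfkb2 was at 149, 145 and 134 CPM with cabo and 120, 119 and 109 CPM in control (log2 fold change 0.27, SE 0.08, edgeR adjusted p = 0.140). In these members the D14 cabo tumors were tightly grouped. Without control mouse 5, Tnfaip3 was called (log2 fold change 0.69, edgeR adjusted p = 0.0467). DESeq2 called Birc3, Tnfaip3 and Nfkb2, with adjusted p = 0.000232, 0.0088 and 0.0430, among 1483 genes it called in all. Icam1 (15.9, 26.0 and 14.6 CPM against 15.04, 10.6 and 9.19 CPM) overlapped between the groups, with a log2 fold change of 0.68 (SE 0.26, edgeR adjusted p = 0.221). Vcam1 (0.55), Traf1 (0.20), Tnf (0.15), Nfkbia (0.08) and Relb (0.04) had positive estimates that did not pass, and Ptgs2 a negative one (-0.52, SE 0.50). Control Ptgs2 ranged from 23.7 CPM in mouse 3 to 116 CPM in mouse 7, wider than any difference between the groups.

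In all, 9 of the 10 members had positive estimates, with a median log2 fold change of 0.24 beside -0.01 over all genes tested. Of the 60 pathway genes tested, 2 were called higher and 1 lower (6 and 2 by DESeq2), beside 223 and 129 of all genes by edgeR. Il1b, a cytokine of activated myeloid cells, was at 13.5, 17.1 and 17.6 CPM with cabo and 7.79, 5.55 and 3.51 CPM in control (log2 fold change 1.50, edgeR adjusted p = 0.0416). Selp, which encodes the adhesion molecule P-selectin, was at 16.4, 14.1 and 14.5 CPM with cabo and 3.74, 6.78 and 7.0 CPM in control (log2 fold change 1.34, edgeR adjusted p = 0.0417). Cd40lg, a T cell ligand of the TNF family, fell from 1.57, 1.06 and 1.39 CPM to 0.316, 0.167 and 0.350 CPM (log2 fold change -2.29, edgeR adjusted p = 0.0344). The groups did not overlap for these 3 genes, but each was called in only 1 of the 6 fits that left out a tumor (highest edgeR adjusted p = 0.154 for Il1b, 0.163 for Selp and 0.124 for Cd40lg).

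The same tumors differed in cell type markers. Myeloid markers summed to 718 to 846 CPM with cabo and 449 to 769 CPM in control (1 of 10 called higher). Endothelial markers summed to 139 to 155 CPM with cabo and 207 to 326 CPM in control (5 of 10 called lower). Lymphocyte markers summed to 15.4 to 24.8 CPM with cabo and 55.7 to 59.1 CPM in control (4 of 10 called lower). Skeletal muscle markers summed to 947 to 1560 CPM with cabo and 6.01 to 120 CPM in control (4 of 10 called higher). Fibroblast and bone markers summed to 10100 to 10900 CPM with cabo and 7170 to 8280 CPM in control (1 of 8 tested called higher), and neutrophil markers to 12.6 to 15.7 and 7.32 to 9.82 CPM (0 of 9 tested called by edgeR, 4 with an unadjusted p under 0.05, 1 higher and 2 lower by DESeq2). The part of these cells in the levels of the members was not tested. With a muscle marker score in the fit, none of the 18627 genes was called. The muscle sums of cabo and control tumors did not overlap, so this fit could hardly separate the score from cabo, and no conclusion is drawn from it. In that fit Birc3 had a log2 fold change of 0.61 (edgeR adjusted p = 0.755), Nfkb2 of 0.30 (edgeR adjusted p = 0.856), and Tnfaip3 turned from 0.55 to -0.09 (edgeR adjusted p = 0.965).

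**Figure D3:**
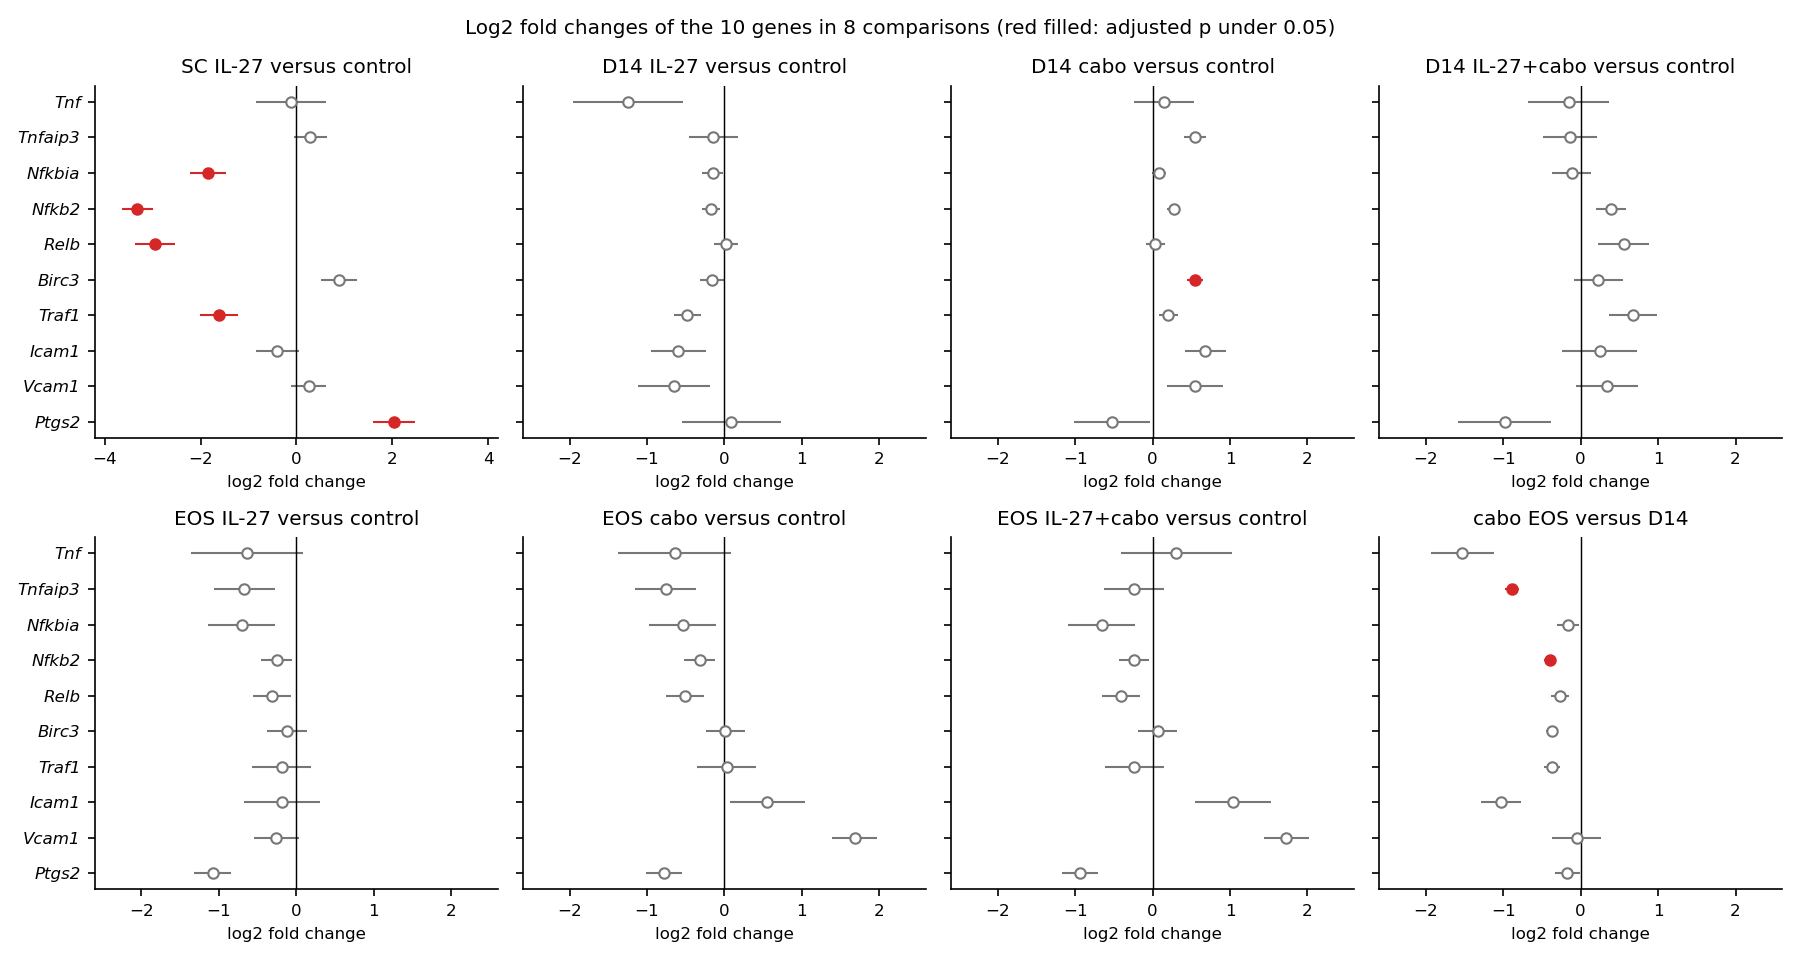
Log2 fold change of each gene in 8 comparisons, with bars of 1 SE from edgeR; filled red points have an adjusted p under 0.05, and the axis of the SC panel is wider than the others. The SC panel has 5 filled points, the D14 cabo panel has Birc3 alone, and the panel of EOS against D14 in cabo tumors has Tnfaip3 and Nfkb2.

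For IL-27 alone at D14, no member passed the test (0 of 10 called by edgeR, 1 with an unadjusted p under 0.05 and 0 by DESeq2), beside 0% of 18519 genes by edgeR, 2.76% with an unadjusted p under 0.05 and 2 genes by DESeq2. That member was Traf1, at 17.1, 14.3 and 17.96 CPM with IL-27 and 26.7, 21.3 and 21.6 CPM in control, so that no IL-27 tumor reached the control tumors. The log2 fold change was -0.48 (SE 0.17, edgeR adjusted p = 1.00). Nfkb2 was also lower in each IL-27 tumor (97.0, 105 and 104 CPM), with a log2 fold change of -0.17 (SE 0.12, edgeR adjusted p = 1.00). Tnf had the most negative estimate, -1.24 (SE 0.71), on 0.50, 0.124 and 1.04 CPM against 1.63, 1.64 and 0.700 CPM in control. Ptgs2 overlapped between the groups, at 55.7, 114 and 28.5 CPM with IL-27 and 23.7, 48.8 and 116 CPM in control (log2 fold change 0.09, SE 0.64, edgeR adjusted p = 1.00). In the IL-27 tumors the myeloid markers summed to 352 to 494 CPM, against 449 to 769 CPM in control, and the neutrophil markers to 5.08 to 6.64 CPM, against 7.32 to 9.82 CPM. Lymphocyte markers summed to 7.48 to 54.6 CPM with IL-27 and 55.7 to 59.1 CPM in control, and muscle markers to 25.1 to 1670 CPM and 6.01 to 120 CPM. Fibroblast and bone markers summed to 5630 to 6440 CPM with IL-27 and 7170 to 8280 CPM in control. None of these markers was called (0 by edgeR and 0 by DESeq2). Of them, 1 of 10 myeloid, 0 of 9 neutrophil, 1 of 10 lymphocyte, 2 of 10 muscle and 2 of 7 tested fibroblast and bone markers had an unadjusted p under 0.05. The part of these cells in the levels of Traf1, Nfkb2 and Tnf was not tested. Over both drug arms, IL-27 gave 0 of 10 members by edgeR, 0 with an unadjusted p under 0.05 and 0 by DESeq2, beside 0% of 19899 genes by edgeR, 3.53% with an unadjusted p under 0.05 and 4 genes by DESeq2.

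IL-27+cabo at D14 called no member (0 by edgeR, 0 with an unadjusted p under 0.05 and 0 by DESeq2), beside 0.0640% of 18750 genes by edgeR, 6.2% with an unadjusted p under 0.05 and 483 genes by DESeq2. Without mouse 20, edgeR called 175 genes in place of 12. The group was not uniform. In mouse 20, Relb was at 47.5 CPM and Traf1 at 49.3 CPM, against 26.3 and 24.7 CPM for Relb and 25.5 and 34.4 CPM for Traf1 in mice 22 and 24. Birc3 (27.4 CPM), Tnfaip3 (14.7 CPM) and Icam1 (5.30 CPM) were lower in mouse 20 than in mice 22 and 24 (61.1 and 55.6 CPM for Birc3, 36.1 and 29.5 CPM for Tnfaip3, 20.7 and 15.2 CPM for Icam1). Nfkb2 was high in all 3 tumors (160, 144 and 148 CPM, log2 fold change 0.39, SE 0.19) and above every D14 control tumor. Without mouse 20, the log2 fold change of Birc3 went from 0.23 to 0.49 (edgeR adjusted p = 0.176), that of Icam1 from 0.24 to 0.62 (edgeR adjusted p = 0.341) and that of Relb from 0.55 to 0.15 (edgeR adjusted p = 0.67).

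Taking cabo across both vectors, with IL-27 as a second factor, 0 of 10 members were called by edgeR, 5 had an unadjusted p under 0.05 and 1 was called by DESeq2, beside 0.895% of 19899 genes by edgeR, 12.5% with an unadjusted p under 0.05 and 1045 genes by DESeq2. Nfkb2 was the member called by DESeq2. All 6 D14 tumors with cabo had more Nfkb2 (134 to 160 CPM) than all 6 without it (97.0 to 120 CPM), a log2 fold change of 0.41 (SE 0.10, edgeR adjusted p = 0.0715, DESeq2 adjusted p = 0.00082). Without mouse 20 in that fit, Nfkb2 (0.37, edgeR adjusted p = 0.016) and Birc3 (0.59, edgeR adjusted p = 0.0054) were called, while the genes called over the whole table went from 178 of 19899 to 1209 of 20523. Traf1 (0.67), Birc3 (0.46), Icam1 (0.75) and Vcam1 (0.76) were the other members with an unadjusted p under 0.05. In the same fit 5 of 10 endothelial markers were called lower, and 9 of 10 skeletal muscle markers had an unadjusted p under 0.05 (0 called by edgeR, 6 higher by DESeq2). Of the myeloid markers 4 of 10 had an unadjusted p under 0.05 (0 called by edgeR, 1 higher by DESeq2), with a median log2 fold change of 0.67 over the list. The same held for 5 of 9 neutrophil markers (median 0.50, 1 higher and 1 lower by DESeq2) and 4 of 8 fibroblast and bone markers (median 0.58, 2 higher by DESeq2), with 0 called by edgeR in either list. Lymphocyte markers had a median of -0.75, with 4 of 10 at an unadjusted p under 0.05 (0 called by edgeR, 1 higher and 2 lower by DESeq2). Epithelial tumor markers had a median of 0.46, with 2 of 6 at such a p (0 called by edgeR, 1 higher by DESeq2). The IL-27+cabo tumors held endothelial sums of 117 to 139 CPM and muscle sums of 1280 to 3810 CPM. The part of these cells in the members' levels was not tested. In the test of whether the effect of cabo depended on IL-27, 0 of 10 members were called by edgeR, 1 had an unadjusted p under 0.05 and 0 were called by DESeq2, beside 0% of 19899 genes by edgeR, 1.88% with an unadjusted p under 0.05 and 5 genes by DESeq2. That member was Traf1, with an interaction of 0.93 on the log2 scale (SE 0.34, edgeR adjusted p = 0.952).

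At EOS the groups held 2 tumors each, and 1 control tumor stood apart. Nfkbia was at 102 CPM in control mouse 9 and 35.7 CPM in control mouse 13. The tumor of mouse 9 also held more Tnfaip3 (54.8 against 23.6 CPM), Nfkb2 (159 against 105 CPM), Relb (33.9 against 20.9 CPM), Birc3 (57.6 against 34.2 CPM) and Tnf (1.32 against 0.262 CPM). Of the 13 pathway genes named in the comparisons, Cxcl2 (20.7 against 0.344 CPM), Il1b (19.3 against 0.702 CPM) and Ccl2 (104 against 25.5 CPM) were among those higher in mouse 9. Ltbr and Selp were lower. Il6, Cxcl5 and Cd40lg were higher only on low counts, 26, 16 and 9 in mouse 9 against 0, 0 and 7 in mouse 13. These genes were named by their calls in other comparisons, and the share of all genes higher in mouse 9 was not computed. Mouse 9 had the highest Nfkbia and Tnfaip3 of all 20 intratibial tumors. Neutrophil markers summed to 19 CPM in mouse 9 and 3.23 CPM in mouse 13, and myeloid markers to 553 and 302 CPM. In the same order, endothelial markers summed to 288 and 179 CPM, fibroblast and bone markers to 7310 and 5030 CPM, and lymphocyte markers to 10.7 and 9.51 CPM. Epithelial tumor markers (77.9 and 106 CPM) and skeletal muscle markers (6.64 and 12.2 CPM) were lower in mouse 9. The part of these cells in the difference was not tested.

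Against these controls, 0 of 10 members were called in EOS IL-27 (1 with an unadjusted p under 0.05, 1 by DESeq2), EOS cabo (2 and 1) or EOS IL-27+cabo tumors (2 and 2), beside 0% of 20026 genes by edgeR in each. These comparisons share their control tumors. Over all genes, 3.25%, 8.90% and 14.2% had an unadjusted p under 0.05 in these comparisons, and DESeq2 called 23, 270 and 928 genes. Vcam1 and Ptgs2 were the members with an unadjusted p under 0.05. Vcam1 was at 53.6 and 58.2 CPM in cabo and 46.4 and 70.2 CPM in IL-27+cabo tumors, against 15.7 and 19.1 CPM in control and 10.8 and 18.5 CPM in IL-27 tumors. Every tumor that had received cabo thus lay above every tumor that had not. The log2 fold change was 1.68 with cabo (SE 0.29, edgeR adjusted p = 0.404, DESeq2 adjusted p = 2.63e-05). With IL-27+cabo it was 1.73 (SE 0.29, edgeR adjusted p = 0.153, DESeq2 adjusted p = 3.51e-06). Leaving out either control tumor left these values between 1.54 and 1.89.

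Ptgs2 was at 65.7 and 67.7 CPM in the control tumors, and lower in each treated tumor. It was at 35.9 and 27.6 CPM with IL-27 (log2 fold change -1.08, SE 0.24, edgeR adjusted p = 1.00, DESeq2 adjusted p = 0.0232). With cabo it was at 38.4 and 39.6 CPM (log2 fold change -0.78, SE 0.23, edgeR adjusted p = 0.475, DESeq2 adjusted p = 0.0991). With IL-27+cabo it was at 43.2 and 26.9 CPM (log2 fold change -0.94, SE 0.23, edgeR adjusted p = 0.195, DESeq2 adjusted p = 0.0079). Unlike Nfkbia and Tnfaip3, Ptgs2 was at the same level in mice 9 and 13.

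The other estimates at EOS depended on which control was used. For EOS IL-27, the log2 fold change of Nfkbia was -0.71 with both controls, 0.25 without mouse 9 and -1.28 without mouse 13. For Tnfaip3 the same 3 values were -0.68, 0.07 and -1.17. The endothelial markers summed to 318 to 374 CPM in EOS cabo and 301 to 446 CPM in EOS IL-27+cabo tumors, against 179 to 288 CPM in control (0 of 10 called by edgeR in either, with 4 and 5 at an unadjusted p under 0.05, and 0 and 1 called by DESeq2). The myeloid markers summed to 467 to 503, 535 to 855 and 302 to 553 CPM in the same order (0 of 10 called by edgeR in either, with 1 and 4 at an unadjusted p under 0.05, and 1 and 2 called by DESeq2). Skeletal muscle markers summed to 99 to 764, 84.5 to 189 and 6.64 to 12.2 CPM (0 of 10 called by edgeR in either, with 10 and 9 at an unadjusted p under 0.05, and 10 and 7 called by DESeq2). In the same order, lymphocyte markers summed to 4.75 to 6.53, 3.88 to 5.76 and 9.51 to 10.7 CPM (4 and 1 of 10 at an unadjusted p under 0.05). Neutrophil markers summed to 2.6 to 3.21, 4.31 to 8.5 and 3.23 to 19 CPM (4 and 1 of 7 tested at such a p). Of these 2 lists, 0 were called by edgeR or DESeq2. Vcam1 is expressed by both endothelial and myeloid cells. The part of any of these cells in the levels of Vcam1 and Ptgs2 was not tested. Of the 58 pathway genes tested at EOS, 0 were called by edgeR or by DESeq2 in any of the 3 comparisons, and 5 (IL-27), 4 (cabo) and 8 (IL-27+cabo) had an unadjusted p under 0.05, beside the shares of all genes given above.

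EOS and D14 tumors of each treatment were compared to follow the genes after dosing had ended. In cabo tumors, Tnfaip3 and Nfkb2 fell, and all 10 members had negative estimates. Of the 10 members, 2 were called, beside 2.09% of 19144 genes, and the members' median log2 fold change was -0.37 beside 0.01 over all genes. Tnfaip3 went from 45.5, 44.4 and 41.7 CPM at D14 to 22.5 and 24.2 CPM at EOS, a log2 fold change of -0.89 (SE 0.09, edgeR adjusted p = 0.00843), or 1.85-fold lower. Nfkb2 went from 149, 145 and 134 CPM to 105 and 107 CPM, a log2 fold change of -0.40 (SE 0.07, edgeR adjusted p = 0.0490). For both, the EOS levels lay below every D14 cabo tumor. Leaving out single tumors removed the call of Nfkb2 in each of the 5 fits (edgeR adjusted p = 0.077 to 0.186), and that of Tnfaip3 only without mouse 21 (edgeR adjusted p = 0.054). With all intratibial groups in 1 fit neither was called (edgeR adjusted p = 1.00 for Tnfaip3 and 0.888 for Nfkb2).

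Icam1 (-1.03), Tnf (-1.53), Birc3 (-0.37) and Traf1 (-0.37) were called lower by DESeq2 in the same comparison, with adjusted p = 0.00199, 0.0224, 0.00145 and 0.0108, among 1749 genes it called in all. In edgeR their adjusted p were 0.113, 0.127, 0.0821 and 0.128. Icam1 was at 15.9, 26.0 and 14.6 CPM at D14 and 8.68 and 9.46 CPM at EOS. Vcam1 stood apart from Icam1 here, with 50.4, 88.0 and 38.1 CPM at D14 and 53.6 and 58.2 CPM at EOS (log2 fold change -0.05, SE 0.32).

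Of the 59 pathway genes tested in cabo tumors, 7 were called lower at EOS (21 by DESeq2), beside 219 of all 19144 genes by edgeR, and the median over the 59 was -0.31 on the log2 scale, beside 0.01 over all genes. Of these, 5 were inflammatory targets. Il1b went from 13.5, 17.1 and 17.6 CPM to 2.17 and 2.26 CPM (log2 fold change -2.83, edgeR adjusted p = 0.00181). The monocyte chemokine gene Ccl2 went from 60.5, 74.2 and 79.3 CPM to 31.1 and 32.1 CPM (-1.15, edgeR adjusted p = 0.0109). The IL-6 family cytokine gene Lif changed by -1.61 (edgeR adjusted p = 0.0286) and the AP-1 gene Junb by -0.61 (edgeR adjusted p = 0.0286). Il1b was called in each of the 5 fits that left out a tumor and Ccl2 in 4 of them, all but the fit without mouse 23 (edgeR adjusted p = 0.0695), whereas Lif and Junb were called only without mouse 25. In these tumors neutrophil markers summed to 12.6 to 15.7 CPM at D14 and 2.6 to 3.21 CPM at EOS (0 of 8 tested called by edgeR, 7 with an unadjusted p under 0.05 and 4 lower by DESeq2), with Camp, Ltf, Mpo, Ngp and Retnlg at 0 in both EOS tumors. Skeletal muscle markers summed to 947 to 1560 CPM at D14 and 99 to 764 CPM at EOS (0 of 10 called by edgeR, 4 with an unadjusted p under 0.05 and 2 lower by DESeq2). Further, 8 of 10 endothelial markers were called higher at EOS, and 2 of 10 myeloid, 1 of 10 lymphocyte and 2 of 8 tested fibroblast and bone markers lower. The part of these cells in the changes of the members was not tested.

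The other treatments called no member between D14 and EOS. In control tumors 0 of 10 were called by edgeR, 2 had an unadjusted p under 0.05 and 1 was called by DESeq2, beside 0.104% of 19292 genes by edgeR, 13.1% with an unadjusted p under 0.05 and 872 genes by DESeq2. Those were Icam1 (log2 fold change -0.91, SE 0.31, edgeR adjusted p = 0.304) and Vcam1 (-1.18, SE 0.34, edgeR adjusted p = 0.242, DESeq2 adjusted p = 0.0195). Vcam1 was at 59.2, 26.9 and 32.8 CPM in D14 control tumors and 15.7 and 19.1 CPM in EOS control tumors, so that the groups did not overlap. In the same tumors the myeloid markers summed to 449 to 769 CPM at D14 and 302 to 553 CPM at EOS (0 of 10 called by edgeR, 4 with an unadjusted p under 0.05 and 4 lower by DESeq2), and the lymphocyte markers to 55.7 to 59.1 and 9.51 to 10.7 CPM (4 of 10 called lower). The part of these cells was not tested. In IL-27 tumors 0 of 10 were called by edgeR, 0 had an unadjusted p under 0.05 and 0 were called by DESeq2. Over all 19078 genes, 0% were called by edgeR, 5.05% had an unadjusted p under 0.05 and DESeq2 called 105. In IL-27+cabo tumors 0 of 10 were called by edgeR, 1 had an unadjusted p under 0.05 (Traf1, -1.12, SE 0.44) and 0 were called by DESeq2. Over all 19365 genes, 0% were called by edgeR, 3.83% had an unadjusted p under 0.05 and DESeq2 called 326.

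Whether a treatment's effect differed between EOS and D14 was tested over all 20 intratibial tumors and 21563 genes. For IL-27, 0 of 10 members were called by edgeR, 0 had an unadjusted p under 0.05 and 0 were called by DESeq2. Over all genes, 0% were called by edgeR, 1.93% had an unadjusted p under 0.05 and DESeq2 called 3. For cabo the member counts were 0, 2 and 0, beside 0.0788% called by edgeR, 4.11% with an unadjusted p under 0.05 and 89 genes called by DESeq2. The 2 members were Tnfaip3, whose cabo effect was lower at EOS by -1.33 on the log2 scale (SE 0.58, edgeR adjusted p = 1.00), and Nfkb2 (-0.61, SE 0.23, edgeR adjusted p = 1.00). For IL-27+cabo the member counts were 0, 2 and 0, beside 0.0788%, 9.14% and 191 genes. Here the 2 members were Relb (-0.92, SE 0.38, edgeR adjusted p = 0.505) and Nfkb2 (-0.60, SE 0.23, edgeR adjusted p = 0.486). The effect of cabo on Tnfaip3 and Nfkb2 was therefore not shown to differ between the time points.

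Across the 20 intratibial tumors, most pairs of members had a positive r, and Ptgs2 stood apart from the rest. Correlations are Pearson r of log2 CPM and are given as descriptions, since the tumors share groups and cell composition. Because mouse 20 (D14 IL-27+cabo) stood apart, r over the other 19 tumors is given beside them, as an alternative chosen after seeing the data. Icam1 and Vcam1 varied together with and without that tumor (r = 0.86 and 0.88, and 0.87 over all 20 after group means were removed). The same held for Nfkb2 with Traf1 (0.81 and 0.78), Nfkb2 with Relb (0.73 and 0.72), Birc3 with Icam1 (0.76 and 0.75), Birc3 with Tnfaip3 (0.71 and 0.63), and Tnf with Icam1 (0.74 and 0.76). Some other pairs moved by more. Without mouse 20, r of Relb went from -0.12 to 0.45 with Birc3, from -0.10 to 0.44 with Tnfaip3, from 0.17 to 0.80 with Nfkbia, and from 0.68 to 0.46 with Traf1. In the same way r of Birc3 went from 0.48 to 0.83 with Nfkb2 and from 0.26 to 0.75 with Traf1. Ptgs2 had a negative r with 7 of the 9 other members, from -0.15 with Birc3 to -0.43 with Traf1, and was positive with Tnfaip3 (0.34) and Nfkbia (0.20). Without mouse 20 its r lay between -0.44 (Vcam1) and 0.22 (Tnfaip3).

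**Figure D4:**
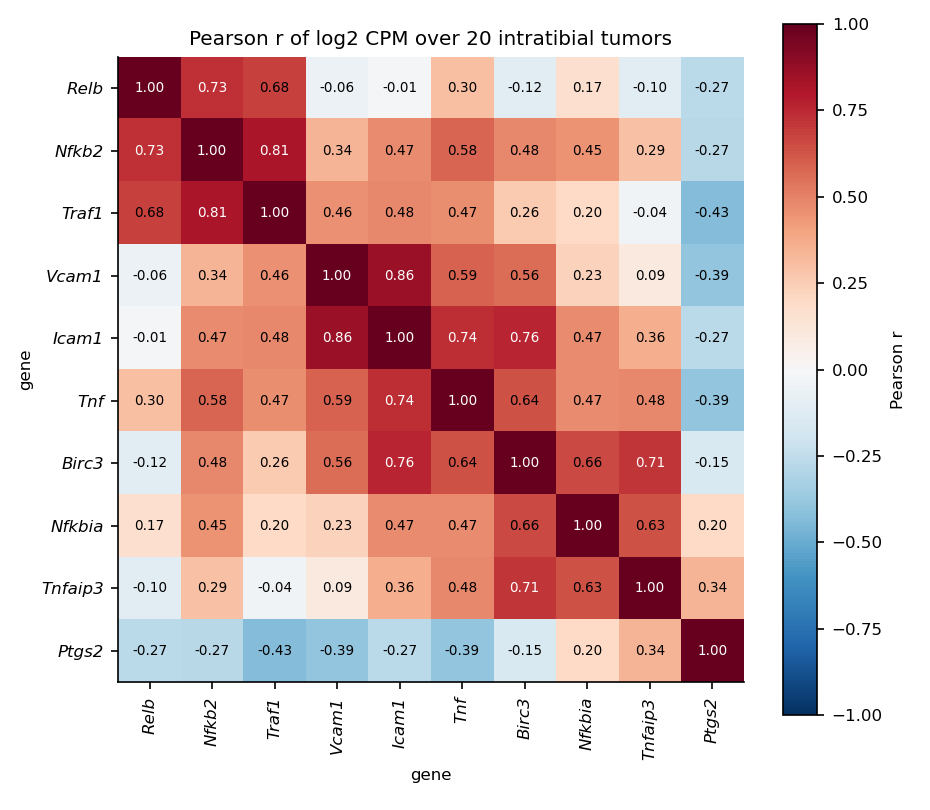
Pearson r of log2 CPM between each pair of the 10 genes over the 20 intratibial tumors; red is positive, blue negative, and the diagonal is 1. Vcam1 and Icam1 (0.86) and Nfkb2 and Traf1 (0.81) are among the reddest pairs, the Ptgs2 row is mostly blue, and several cells of Relb are pale, of which that with Birc3 went from -0.12 to 0.45 without mouse 20 and that with Vcam1 from -0.06 to -0.02.

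Icam1 and Vcam1 followed the myeloid marker score, the mean log2 CPM of 10 myeloid markers, at r = 0.86 and 0.87, against -0.24 and -0.05 for the endothelial score. After group means were removed, r was 0.74 and 0.79 with the myeloid score and 0.38 and 0.37 with the endothelial score. With the epithelial tumor score, r was -0.07 and 0.08, and -0.80 and -0.60 after group means were removed. With the skeletal muscle score, r was 0.48 and 0.575, and 0.05 and 0.17 after group means were removed. No r with group means removed was recomputed without mouse 20. Traf1 (0.73), Tnf (0.66), Nfkb2 (0.61) and Birc3 (0.54) also had a positive r with the myeloid score, and Relb (0.27), Tnfaip3 (0.12) and Ptgs2 (-0.39) had lower ones. Birc3 had r = 0.67 with the fibroblast and bone score (0.66 without mouse 20). With the epithelial tumor score, r of Birc3 was -0.275 (0.03 without mouse 20), and -0.73 after group means were removed. Relb and Nfkb2 each had r = 0.51 with the neutrophil score (0.55 and 0.62 after group means were removed). Without mouse 20, r with the myeloid score was 0.95 for Icam1, 0.89 for Vcam1, 0.79 for Traf1 and 0.70 for Birc3.

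By the same measure, the 3 other genes most like each member among 21563 filtered genes were taken. For Icam1 they included Klra2 and Naip2 (r = 0.95 each). For Vcam1 they were Entpd1 (0.94), Ms4a6c (0.93) and Ms4a6b (0.93). For Birc3 they were Fosl2 (0.93), Itgam (0.93) and Ppp2r3a (0.92), and Fosl2 was also among those of Tnfaip3 (0.86), with Mgrn1 (0.87) and Cp (0.84). Those of Nfkbia were Nos2 (0.87), Il1a (0.87) and Acpp (0.82). Traf1 was most like Rasgrp4 (0.90), Ccl5 (0.88) and Gstt1 (0.88), Relb most like Frat2 (0.91), Naprt (0.89) and Dhrs1 (0.88), or 0.75, 0.73 and 0.69 without mouse 20, and Nfkb2 most like Gm35019 (0.86), Col16a1 (0.85) and Fpr2 (0.85). Tnf was most like Casp12 (0.87), Trim30d (0.86) and Hrh2 (0.85). Ptgs2 was most like a different kind of gene, the heat shock genes Hspa1a (0.85) and Hspa1b (0.84), with Gem (0.84).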

How the data were processed

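RNA was measured in 24 mouse tumors of 10 groups, assigned from the sample labels. Per the authors, poly(A) libraries were stranded, cutadapt removed adapters, HISAT2 aligned the reads and StringTie built the transcripts. The deposited values are unnormalized counts, in whole numbers, of each Ensembl gene. The program that made the counts and its annotation are not given in the sources used here. The submitters' processing notes name FastQC, HISAT2, StringTie, DESeq2 and the human build GRCh38, although the identifiers are of mouse genes. Of the 55401 identifiers, 55141 are in GENCODE M21 (GRCm38), which gave names and positions. Between 30.4% and 35.5% of values from 1 to 20 were multiples of 4, so dividing counts by 4 was an alternative.

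The main test was edgeR 4.0.16 in R 4.3.3 (filterByExpr, TMM, quasi-likelihood F test, two-sided). P-values were adjusted by Benjamini-Hochberg over all genes tested, with a threshold of 0.05, and the SE is the log2 fold change divided by the root of F. The groups compared entered each fit, except that EOS groups shared 1 fit. CPM values were scaled by TMM, SC and intratibial tumors apart, and log2 CPM used a prior count of 2. Alternatives were DESeq2 1.42.0, RLE normalization, no filter, offsets for GC content and length (splines with 5 degrees of freedom), a muscle score, pooled fits, a replicate block and leaving out each tumor. The method was tested on simulated data. The members and gene lists were chosen with earlier results of these data known. All members are described, and of the pathway lists the called genes are named, at most the 4 with the smallest p per direction and comparison. For Icam1, 1 of the 3 genes most like it is not reported here.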

Additional observations from a re-analysis of the deposited data

Results flagged for a closer look

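The change of Ptgs2, the gene of COX-2, with IL-27 stood out because the tumors of SC and EOS groups moved in opposite directions. Both SC IL-27 tumors lay above both SC control tumors, with a log2 fold change of 2.03, and both EOS IL-27 tumors lay below both EOS control tumors, with a log2 fold change of -1.08. At D14 the IL-27 tumors overlapped control, with a log2 fold change of 0.09 (SE 0.64, edgeR adjusted p = 1.00). With GC and length offsets the SC value of Ptgs2 was 0.79 and no longer called (edgeR adjusted p = 0.145), and the EOS change was not called by edgeR (adjusted p = 1.00). The difference between the 2 models was not tested, since SC and intratibial tumors were scaled apart and differ in site, time after implantation and cells (TC2Ras or TC2Ras-Luc). No rule for samples far from the others was applied, since every group held 2 or 3 tumors.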

How the results depend on the processing

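Counts of called members out of 10 were compared between settings. SC IL-27 against control gave 5 members, 5 also with the replicate block, and 1 with GC and length offsets or with the replicate block and these offsets together. Same-numbered SC tumors did not deviate together (r = 0.031, 2 pairs), so the number is not evidence of pairing. Without single tumors the SC count was 2 to 6, and all SC calls but those of Nfkb2 and Relb were lost in at least 1 such fit. D14 cabo against control gave 1 member, 3 with DESeq2, 0 without the filter, 0 with the muscle score, 0 with all intratibial groups in 1 fit and 0 to 1 without single tumors. D14 cabo across vectors gave 0 members, 1 with DESeq2, 1 with GC and length offsets, 1 with counts divided by 4 and 0 to 2 without single tumors. The cabo comparison of EOS with D14 gave 2 members, 6 with DESeq2, 1 without the filter, 0 with all intratibial groups in 1 fit and 0 to 1 without single tumors. DESeq2 called 1 member for EOS IL-27, 1 for EOS cabo, 2 for EOS IL-27+cabo and 1 for control EOS against D14, where edgeR called 0. The other 9 comparisons gave 0 members in every setting.

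Over all genes, DESeq2 called 6120 against 3880 genes in SC tumors (2245 against 682 of them higher), 1483 against 352 for D14 cabo and 1749 against 400 for cabo EOS against D14. GC and length offsets called 2205 genes in SC tumors. Of 35 member values with an unadjusted p under 0.05, recomputed 508 times, 1 reversed: Tnfaip3 for D14 cabo went from 0.55 to -0.091 with the muscle score. That fit could hardly separate the score from cabo, since muscle sums did not overlap between the groups. Causes of these changes were not tested. Groups of 2 or 3 tumors and the low counts of Tnf limit what could be detected.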
